A study of Mus musculus with 11 samples.

Results

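The leucine-rich repeat containing (Lrrc) genes were followed in testis RNA of mice with and without the transcription factor RFX2. All genes of the count table whose GENCODE M21 symbol is Lrrc and a digit were taken, without Lrrc6, Lrrc23 and the gene once named Lrrc48 (now Drc3). This gave 63 of 23074 genes. RNA-Seq was done on whole decapsulated testes at postnatal day 21 (P21), from 5 wild type (WT) and 6 Rfx2-/- mice, each mouse giving 1 library. All mice were of a mixed C57BL/6, 129/Sv and FVB/N background. The Rfx2-/- mice were homozygous for an allele that was targeted in 129/Sv ES cells and lost its loxP-flanked exon 7 through Cre under the ACTB promoter, which acts in the whole animal and not in germ cells alone. The study's mixed background line kept the neo selection cassette in this allele. The comparison asks which transcripts depend on RFX2 when early round spermatids first appear in the testis.

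A leucine-rich repeat is a short protein stretch rich in leucine. Repeats stack into an arc whose inner face binds other proteins, and the same fold serves anion channels, synaptic adhesion proteins, centrosome linkers and axoneme proteins. The Lrrc symbol was given for the repeat and not for a shared task, so its holders form no single pathway. RFX2 is a winged-helix factor that binds X-box motifs, which are pairs of inverted half-sites, in promoters of genes for cilia and the sperm flagellum. In the testis it acts in late spermatocytes and round spermatids.

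Total counts were between 26925157 and 29769483 in WT and between 22232097 and 27116903 in Rfx2-/- mice (two-sided exact permutation test of the mean difference, p = 0.0130). Levels are given as CPM, that is counts scaled to library size with TMM, and 3 counts in a library were worth 0.0852 to 0.139 CPM. Rfx2 itself (ENSMUSG00000024206) had 472, 380, 218, 368 and 191 CPM in WT replicates 1 to 5 and 282 to 324 CPM in Rfx2-/- mice, with a log2 fold change of -0.10 (SE 0.21, edgeR adjusted p = 0.714). These counts cover all exons of the gene and do not check the loss of exon 7. Sycp3 of meiotic chromosomes, at 192 to 317 CPM, and Clu of Sertoli cells, at 1804 to 2697 CPM, were present in every mouse. Not all germ cell markers were, since H1fnt and Spaca7 were at 0 in at least 1 WT mouse. Round spermatid markers varied much more among mice of 1 genotype, and their values are given with the Lrrc genes that varied with them.

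Promoter sequence was examined first, because RFX factors read it directly. RefSeq promoter windows of GRCm38.p6, from 250 bases before to 50 bases after a transcript start, were found for 51 of the 63 Lrrc genes and made up 59 windows. An RFX half-site, searched as GTTGCC or GTTACC on both strands, was in 17 of these 59 windows (28.8%), against 18.6% of all 32851 windows. Both shares are descriptions. The pair of facing half-sites (GTTNCC, 0 to 3 bases, GGNAAC), searched as a full X-box, was in 0.804% of all windows and in 0 of the Lrrc windows, which says only that these letters were not found there. The study's ChIP-Seq annotation marks 8 of the 52 Lrrc genes tested here as RFX2 promoter targets (15.4%), against 948 of 15745 tested genes (6.02%). The reads behind these marks were not used here. These 8 were Lrrc9, Lrrc27, Lrrc34, Lrrc43, Lrrc46, Lrrc49, Lrrc56 and Lrrc73. RefSeq windows existed for 7 of them, and 5 held a half-site. Those sequences are printed because they belong to the marked promoters for which the letters of the motif can be seen. Each is a 30-base stretch written along the strand of its gene, with the half-site in capitals.
Lrrc43: ccagGGTAACgcgtctggccGTTGCCtagc
Lrrc34: gaagcttctgtgGTTGCCatgggagcgact
Lrrc49: ccggaagtcatgGTTGCCatagccaccgat
Lrrc56, upstream site: gccgcgtgtcccGGCAACcgttgctagggg
Lrrc56, downstream site: agccccgcccccGTTGCCatggcgccaggc
Lrrc73, upstream site: ccGTTGCCataggaactcgccgcctgctcc
Lrrc73, downstream site: gccgcggccgccGTTGCCtccgcttccgac

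The Lrrc43 stretch lies at chr5:123489279-123489308 on the plus strand and was the printed one with 2 half-sites, which begin 42 and 26 bases before the RefSeq start. Of its bases, 26 lie upstream of the gene in GENCODE and 4 in its first exon. The Lrrc34 stretch (chr3:30647851-30647880, minus strand) has its half-site 50 bases before the RefSeq start, with 19 bases in a GENCODE exon and 11 outside the gene. For Lrrc49 (chr9:60688158-60688187, minus strand) the half-site begins 41 bases before the start. Lrrc56 has stretches at chr7:141194967-141194996 and chr7:141195060-141195089 on the plus strand. Their half-sites begin 164 and 71 bases before the same RefSeq start, the first in a GENCODE intron and the second in a stretch of 18 intronic and 12 exonic bases. Both Lrrc73 stretches (chr17:46253915-46253944 and chr17:46254162-46254191, plus strand) lie in GENCODE exons, 1 at -248 and 1 at +10 from the RefSeq start. Lrrc45 was not marked as a target, and these half-site letters were not in its window.

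Genotype was tested on the counts with edgeR over the 15745 genes that passed its filter on low counts, and 52 Lrrc genes were among them. P-values were adjusted over all these genes (Benjamini-Hochberg), and a gene was called where the result did not exceed 0.01. Lrrc43 and Lrrc45 fell, which is 2 of 52 Lrrc genes, while 1.94% of all tested genes were called lower. Lrrc56 rose, which is 1 of 52, while 0.73% of all tested genes were called higher. Past 2-fold, Lrrc43 remained among the lower calls (background 1.04%) and Lrrc56 among the higher calls (background 0.216%). The shares of Lrrc genes called, 3.85% lower and 1.92% higher, rest on so few genes that they are read as near the background, and the values below concern single genes. In whole testis RNA, fewer cells of a type and less RNA per cell cannot be told apart.

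Lrrc43 (ENSMUSG00000063409, chromosome 5 from 123489305 to 123508205, plus strand) is a gene of ciliated tissues whose exact function is little known. Its levels were 68.2, 42.0, 17.7, 38.2 and 10.8 CPM in the 5 WT mice. In Rfx2-/- mice the lowest was 2.89, the median 3.62 and the highest 4.54 CPM. The genotypes did not overlap, although WT mice differed by up to 6.29-fold among themselves. The log2 fold change was -3.27 (SE 0.41, edgeR adjusted p = 0.000737), or 9.64-fold lower without RFX2, and 65 to 110 reads per Rfx2-/- library stood behind the low values. Lrrc43 was called in all 18 alternative analyses, with log2 fold changes from -3.49 to -2.89. Il31 exons on the other strand overlap 48 nt of the Lrrc43 exons (2.32%), and reads there were discarded by the authors.

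Lrrc45 (ENSMUSG00000025145, chromosome 11 from 120713925 to 120721128, plus strand) encodes a component of the fibres that link the centrioles of a cell. It stood at 21.4, 16.9, 22.5, 16.2 and 19.2 CPM in WT, and at 8.92, 10.2 and 12.6 CPM as the lowest, median and highest of the Rfx2-/- mice. All Rfx2-/- mice were thus below all WT mice, and the spread was small in both genotypes (2.73 and 1.42 CPM, SD, n = 5 and 6). The log2 fold change was -0.86 (SE 0.12, edgeR adjusted p = 0.0017), or 1.81-fold. The call was made in all 18 alternatives, with values from -1.03 to -0.74. Other proteins of the centriole linker were not called. Cep250, the anchor of the linker at the centriole, had a log2 fold change of 0.16 (adjusted p = 0.122), and Crocc, which forms its filaments, of -0.07 (adjusted p = 0.639). Cntln had 0.43 (adjusted p = 0.0411), Cep68 -0.06 (0.608) and Cep44 0.20 (0.162).

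Lrrc56 (ENSMUSG00000038637, chromosome 7 from 141194157 to 141210055, plus strand) is needed for motile cilia, where it takes part in delivering outer dynein arms. Levels in WT were 218, 177, 99.4, 176 and 79.1 CPM. Rfx2-/- mice ranged from 311 to 408 CPM with a median of 373. The lowest Rfx2-/- mouse was above the highest WT mouse. The log2 fold change was 1.29 (SE 0.24, edgeR adjusted p = 0.0085), or 2.44-fold higher. The call is close to the threshold. With 1 mouse left out it was kept without WT replicate 1 or 5 and lost in the other 9 fits, that is without WT replicate 2, 3 or 4 or any Rfx2-/- mouse, with adjusted p from 0.00433 to 0.0242, while the log2 fold change stayed between 1.14 and 1.46. With the round spermatid marker level of each mouse as a covariate it was 1.19 (adjusted p = 0.000484).

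**Figure D1:**
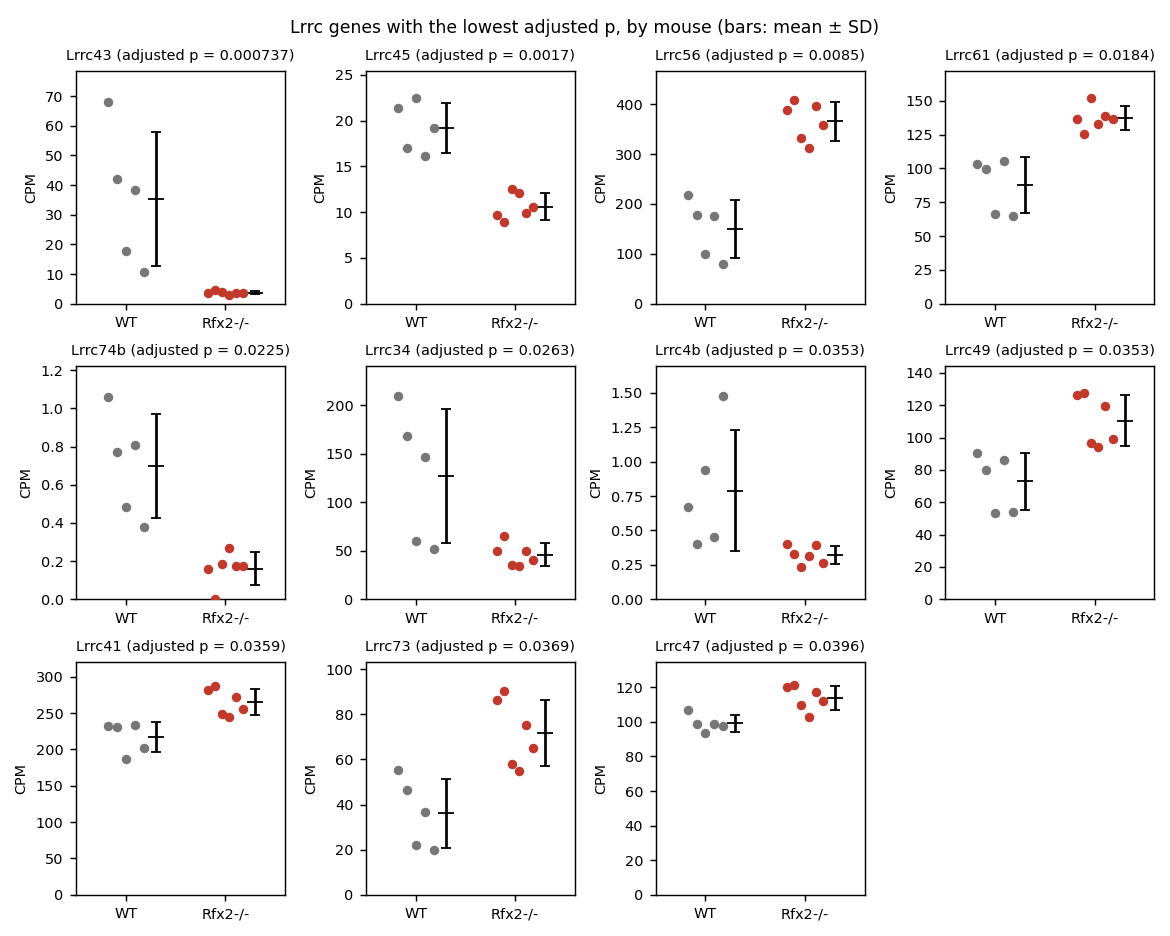
Each panel plots CPM (linear axis from 0) of 1 Lrrc gene with an edgeR adjusted p of at most 0.05, with a point per mouse for 5 WT (grey) and 6 Rfx2-/- (red) mice; the bar beside each group is the mean ± SD. Lrrc43 lies at 2.89 to 4.54 CPM in every Rfx2-/- mouse and at 10.8 to 68.2 CPM in WT, whereas Lrrc56 and Lrrc61 are above all WT mice in every Rfx2-/- mouse.

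A further 8 Lrrc genes had adjusted p between 0.01 and 0.05 and were not called. Counting the called genes, 5 were lower and 6 were higher at an adjusted p of at most 0.05, when 8.78% and 6.15% of all tested genes were so. Genotypes did not overlap for 4 lower and 5 higher Lrrc genes (background 5.2% and 6.5%). Lrrc34 was the most abundant of these on the lower side. It is known from pluripotent stem cells, where the protein is found in the nucleolus. In the functional lists used below it is counted under cilia, flagellum and centrosome. WT mice had 210, 168, 60.1, 147 and 51.4 CPM, and Rfx2-/- mice had 33.8 to 65.4 CPM with a median of 45.0. The 2 lowest WT mice lay inside the Rfx2-/- range. The log2 fold change of Lrrc34 was -1.48 (SE 0.35, adjusted p = 0.0263), and 4 of 18 alternatives called it, among them DESeq2's Wald test, voom and the covariate fit.

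Lrrc74b and Lrrc4b were low genes. Lrrc74b had 1.06, 0.774, 0.483, 0.806 and 0.377 CPM in WT (12 to 30 reads) and 0 to 0.267 CPM in Rfx2-/- (0 to 6 reads), without overlap. Its log2 fold change was -2.10 (SE 0.48, adjusted p = 0.0225). Lrrc4b, a postsynaptic adhesion protein, had 0.669, 0.404, 0.938, 0.455 and 1.48 CPM in WT and 0.231 to 0.399 CPM in Rfx2-/-. The fitted log2 fold change of Lrrc4b was -1.29 (SE 0.35, adjusted p = 0.0353), from 12 to 47 reads against 5 to 10, and under voom it was -0.55 (adjusted p = 0.137).

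On the higher side, Lrrc61 had 103, 99.3, 66.0, 105 and 64.9 CPM in WT and 125, 136 and 152 CPM as the lowest, median and highest Rfx2-/- values. The genotypes of Lrrc61 did not overlap and the log2 fold change was 0.64 (SE 0.14, adjusted p = 0.0184). Lrrc73 (chromosome 17, 10.5 Mb from Rfx2) had 55.4, 46.5, 21.9, 36.7 and 20.0 CPM in WT and 54.8 to 90.4 CPM in Rfx2-/-, with a log2 fold change of 0.99 (SE 0.27, adjusted p = 0.0369). The highest WT mouse lay just above the lowest Rfx2-/- mouse. Lrrc41, an adaptor of a cullin ubiquitin ligase, differed by 0.29 (SE 0.08, adjusted p = 0.0359) and Lrrc47 by 0.20 (SE 0.06, adjusted p = 0.0396) on the log2 scale. With total counts in place of TMM the median of all tested genes moved from -0.05 to -0.22, Lrrc41 moved to 0.13 (adjusted p = 0.0598) and Lrrc47 to 0.03 (adjusted p = 0.619).

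Lrrc49 was described together with the other subunits of its complex. The protein is part of the tubulin polyglutamylase complex, which adds glutamate chains to tubulin and has TTLL1 as its catalytic subunit. Lrrc49 had 90.5, 80.2, 53.3, 85.9 and 54.1 CPM in WT and 94.0 to 127 CPM in Rfx2-/- with a median of 109. Every Rfx2-/- mouse was above every WT mouse, at a log2 fold change of 0.60 (SE 0.16, adjusted p = 0.0353).

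Nicn1, Ttll1 and Tpgs1, which encode further subunits of the complex, carry the same ChIP-Seq mark, and Tpgs2 does not. Of all tested genes, 6.02% carry it. Nicn1 rose. It had 53.2, 49.3, 34.1, 54.7 and 27.9 CPM in WT and 112 to 126 CPM in Rfx2-/- mice, a log2 fold change of 1.45 (SE 0.16, edgeR adjusted p = 0.0004), and was called in all 18 alternatives. The Rfx2-/- mice were all above the WT mice. Ttll1 went the other way without passing the threshold, at 41.4, 34.9, 19.3, 36.4 and 19.7 CPM in WT and 17.5 to 19.9 CPM in Rfx2-/-, or -0.72 (SE 0.19, adjusted p = 0.0359). The 2 lowest WT mice of Ttll1 lay inside the Rfx2-/- range. Tpgs1 and Tpgs2, which hold the complex together, had -0.15 (adjusted p = 0.391) and 0.43 (adjusted p = 0.0789). Of the 4 listed partners of Lrrc49 in this complex, Nicn1 alone was called, in the higher direction, while 0.73% of all tested genes were called higher. A single gene is not read as a result about the complex.

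The 19 Lrrc genes listed under cilia, flagellum and centrosome were all tested. Here 2 were called lower (Lrrc43 and Lrrc45, background 1.94%) and 1 higher (Lrrc56, background 0.73%), and the other 16 did not pass. At an unadjusted p below 0.05, 4 of the 19 were lower (background 23.7%) and 6 higher (background 18.1%). The fitted log2 fold changes of the list were below 0 for 4 genes and above 0 for 15, with a median of 0.64. Over the 52 tested Lrrc genes the median was 0.11 with 61.5% above 0, and over all tested genes it was -0.05 with 45.2% above 0. With total counts in place of TMM, the median of the Lrrc genes turned to -0.03 with 48.1% above 0, against -0.22 with 31.2% over all tested genes. Of the marker lists, the mean log2 CPM was higher in Rfx2-/- mice by 0.75 for the pachytene spermatocyte list and by 1.14 for the round spermatid list. These are differences of mean log2 levels over mice, a measure other than the fitted log2 fold changes of single markers given below. The differences of the Sertoli cell and spermatogonia lists were -0.34 each. They were -0.55 for Leydig cells, -0.37 for endothelial cells, -0.31 for macrophages and -0.04 for peritubular myoid cells. The Leydig marker Hsd3b1 was called lower (log2 fold change -0.86, edgeR adjusted p = 0.00126), and the other Leydig markers were not called. Single markers of the pachytene list had -0.06 (Sycp3), -0.04 (Sycp1), 0.01 (Hormad1), 0.26 (Piwil1) and 0.27 (Mybl1). The others had 1.02 (Spag6), 1.16 (H1fnt) and 1.34 (Ccna1). H1fnt ran from 0 to 25.3 CPM in WT and from 0.0462 to 58.0 CPM in Rfx2-/- mice, as widely as round spermatid markers. The 0.75 therefore does not describe each marker and is not read as a change of pachytene spermatocytes. Fitted values of round spermatid markers went from -0.94 (Prm2) to 1.20 (Acrv1). Prm1, Prm2, Tnp1, Tnp2 and Tssk2 were below 0 and the other markers of that list above 0, so that 1.14 does not describe each marker. No pachytene or round spermatid marker was called. The part of these markers in the median was not tested. Lrrc46, which is needed to build the sperm flagellum, had 636, 495, 206, 484 and 175 CPM in WT and 485 to 751 CPM in Rfx2-/-. Its log2 fold change of 0.64 (SE 0.32, adjusted p = 0.145) did not pass, and the 3 highest WT mice lay inside the Rfx2-/- range or just below it. The 8 genes marked as RFX2 promoter targets had a median of 0.49, with 2 below and 6 above 0, against 0.05 for the other 44. Marked genes therefore included the gene with the largest fall, Lrrc43, and the called rise, Lrrc56.

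**Figure D2:**
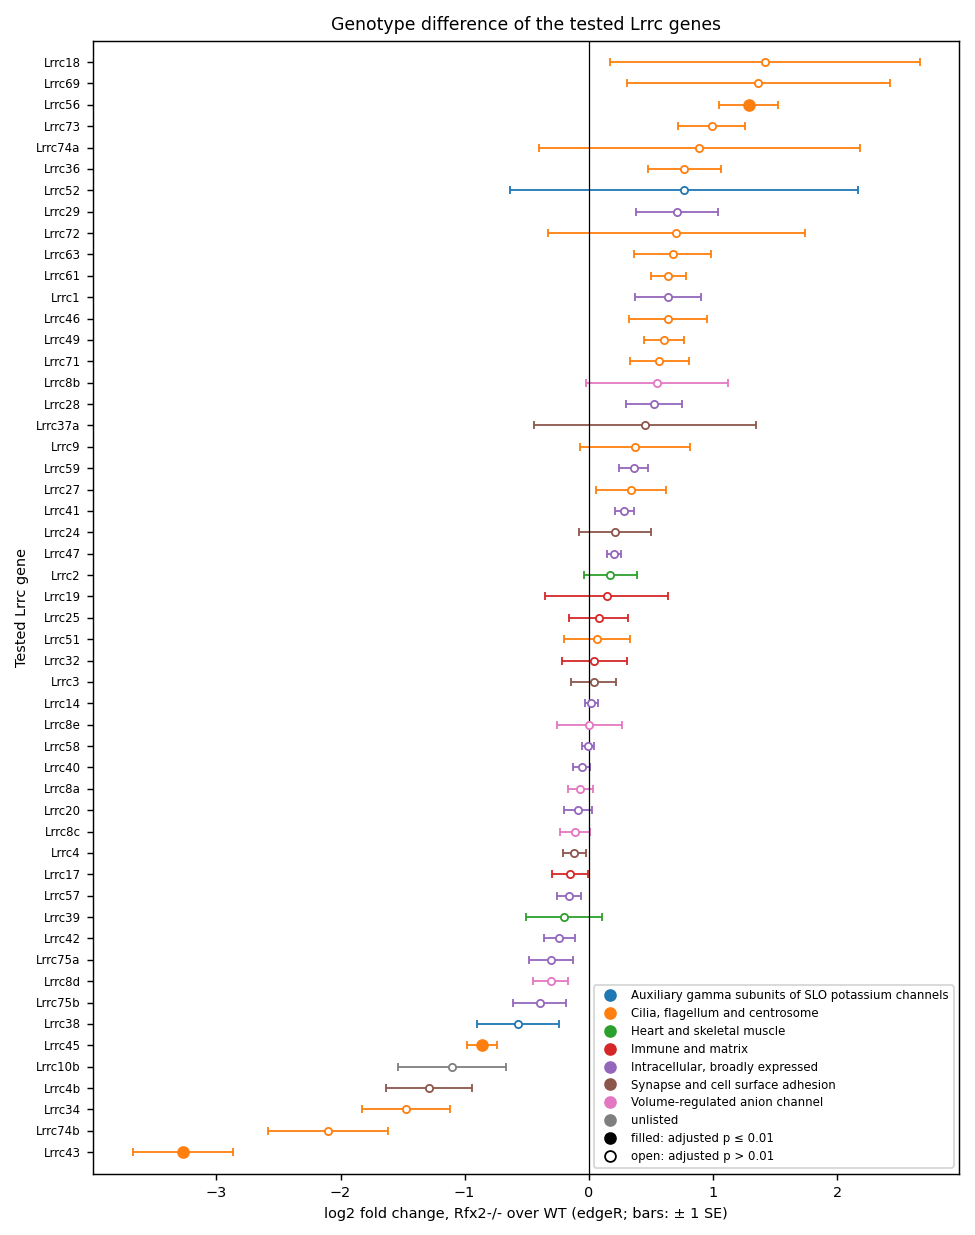
The log2 fold change of Rfx2-/- over WT (x axis, edgeR) is plotted for each of the 52 tested Lrrc genes (y axis), with bars of ± 1 SE, colours for the functional lists and filled symbols for an adjusted p of at most 0.01. Lrrc43 at -3.27, Lrrc45 at -0.86 and Lrrc56 at 1.29 are filled, and the widest bars belong to Lrrc52, Lrrc74a, Lrrc18, Lrrc69 and Lrrc72.

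None of the 5 subunits of the volume-regulated anion channel, which releases chloride and osmolytes from swollen cells, was called (log2 fold changes from -0.31 to 0.55, adjusted p from 0.118 to 0.990). Lrrc8a, the obligatory subunit, had 26.9, 33.1, 36.3, 31.3 and 40.6 CPM in WT and 29.9 to 35.1 CPM in Rfx2-/- mice. The difference of Lrrc8a was -0.07 (SE 0.10, adjusted p = 0.600) and the genotypes overlapped. Of the 4 auxiliary gamma subunits of SLO potassium channels, Lrrc38 and Lrrc52 were tested and not called. Lrrc52, the partner of the sperm channel subunit KCNU1, had 8.14, 1.35, 0.0568, 0 and 0 CPM in WT and 0.267 to 11.5 CPM in Rfx2-/- mice. Its log2 fold change was 0.77 with an SE of 1.4 (adjusted p = 0.682). Kcnu1 itself had 41.1, 15.5, 3.10, 6.41 and 1.57 CPM in WT and 4.53 to 31.3 CPM in Rfx2-/-, at -0.08 (SE 0.79, adjusted p = 0.942), and the somatic channel Kcnma1 had -0.53 (SE 0.14, adjusted p = 0.0359).

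The 14 broadly expressed intracellular genes included 0 calls by edgeR, with 2 at an adjusted p of at most 0.05 (Lrrc41 and Lrrc47), and split evenly into 7 below and 7 above 0. At an unadjusted p below 0.05, 5 of the 14 were higher (background 18.1%) and 0 lower (background 23.7%). DESeq2's Wald test called both Lrrc41 and Lrrc47, and voom called neither. For synapse and cell surface adhesion, 5 of 8 genes in the table were tested and 0 were called, Lrrc4b having the lowest adjusted p (0.0353). Its relatives bind netrin-G proteins. Ntng2 had -0.70 (SE 0.23, adjusted p = 0.0619), and Ntng1 was too low to be tested. Heart and skeletal muscle genes were tested in 2 of 5 cases, and immune and matrix genes in 4 of 7, again with 0 calls by edgeR and adjusted p of 0.441 or more. At an unadjusted p below 0.05 stood Lrrc8d of the anion channel, Lrrc4b of the adhesion genes, and 0 genes of the gamma subunit, muscle and immune lists, and neither DESeq2's Wald test nor voom called a gene of these 5 lists. Among the immune genes, Lrrc32, the docking receptor of latent TGF-beta, stood at 0.04 (SE 0.26, adjusted p = 0.905). Lrrc10b, in no list, had 12.0, 7.06, 2.22, 3.96 and 1.70 CPM in WT and 1.96 to 2.85 CPM in Rfx2-/- mice, at -1.10 (SE 0.44, adjusted p = 0.0885). Without WT replicate 1 the Lrrc10b value was -0.57 (adjusted p = 0.190), which is less than 2-fold.

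Levels were compared between genes after division by the length of their merged exons. Lrrc46 was the most abundant Lrrc transcript in WT testis at 299 ± 150 CPM per kb (SD, n = 5). It was followed by Lrrc27 (101 ± 47.0), Lrrc41 (70.8 ± 6.94), Lrrc59 of the endoplasmic reticulum (68.0 ± 13.4) and Lrrc34 (67.3 ± 36.6 CPM per kb). The ranges of these genes in WT were 131 to 476, 47.8 to 157, 61.2 to 76.1, 52.4 to 80.4 and 27.2 to 111 CPM per kb, so that Lrrc27, Lrrc41, Lrrc59 and Lrrc34 overlapped and their order is not fixed. In Rfx2-/- mice Lrrc56 reached 135 CPM per kb, from 55.2 in WT, while Lrrc34 was at 24.2 and Lrrc43 at 1.77, from 17.1 in WT. The list medians in WT were 17.1 CPM per kb for cilia, flagellum and centrosome, 12.1 for intracellular genes, 4.87 for the anion channel, and between 0.0737 and 0.300 for the synapse, immune, muscle and gamma subunit lists.

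**Figure D3:**
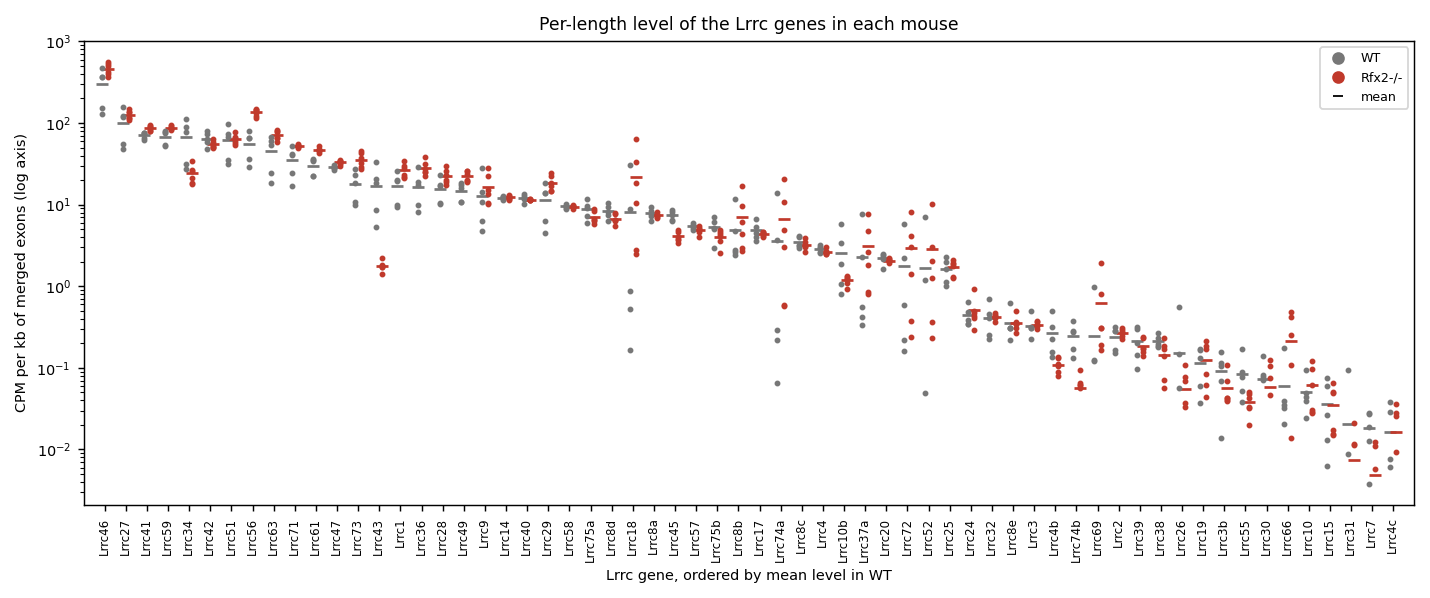
CPM per kb of merged exons (log axis) is plotted for each Lrrc gene, ordered by its mean in WT, with a point per mouse in WT (grey) and Rfx2-/- (red) and a dash for each mean; values of 0, which a log axis cannot show, are left out, so that Lrrc14b is missing. Lrrc46 leads at a mean of 299 CPM per kb in WT, and the Rfx2-/- points of Lrrc43 lie apart from its WT points.

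Mice of 1 genotype differed far more in some Lrrc genes than in others. The highest over the lowest WT value had a median of 2.76 over the 52 tested genes, and 1.5 in Rfx2-/- mice. It was below 1.5 for 10 genes and above 10 for 6, which were Lrrc18, Lrrc37a, Lrrc52, Lrrc69, Lrrc72 and Lrrc74a. All 6 were highest in WT replicate 1 and in Rfx2-/- replicate 7. Lrrc18 had 92.6, 27.4, 1.59, 2.66 and 0.503 CPM in WT and 7.65, 44.0 and 194 CPM as the lowest, median and highest Rfx2-/- values. The ranges of the genotypes overlapped, although WT replicates 3, 4 and 5 were below every Rfx2-/- mouse. The fitted difference of 1.42 had an SE of 1.25 (adjusted p = 0.390), and it was 3.06 without WT replicate 1 (adjusted p = 0.0745) and 0.72 without Rfx2-/- replicate 7 (adjusted p = 0.688).

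Lrrc69, which was also past 2-fold without a call, had 1.37, 0.168, 0, 0.175 and 0 CPM in WT and 0.231 to 2.72 CPM in Rfx2-/-, with a fitted log2 fold change of 1.37 (SE 1.06, adjusted p = 0.332) that rests on WT libraries at or near 0. Without WT replicate 1 the Lrrc69 value was 3.35 (adjusted p = 0.0326). Lrrc74a and Lrrc72 were below 2-fold. Lrrc74a ranged from 0.126 to 27.2 CPM in WT and from 1.11 to 39.8 CPM in Rfx2-/- mice, and Lrrc72 from 0.189 to 6.73 and from 0.277 to 9.66 CPM.

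Round spermatid markers moved with these genes. The mean log2 CPM of all 12 markers on the list, all of them tested, was 5.58, 3.18, 0.22, 0.43 and -1.22 in the WT mice and 0.63 to 5.68 in the Rfx2-/- mice, with the highest value again in WT replicate 1 and Rfx2-/- replicate 7. Fitted log2 fold changes of the 12 markers went from -0.94 (Prm2) to 1.20 (Acrv1). Acrv1 of the acrosome ran from 0.220 to 61.9 CPM in WT and from 5.29 to 112 CPM in Rfx2-/-. Prm2 ran from 0.126 to 35.3 CPM in WT and from 0.0889 to 18.2 CPM in Rfx2-/-. Spaca7 was at 0 in at least 1 WT mouse. The pachytene spermatocyte list lay between 5.38 and 7.49 in WT and 6.32 and 7.90 in Rfx2-/-, and the Sertoli cell list between 6.79 and 7.42 and between 6.63 and 6.87. The pachytene list includes H1fnt, which varied among mice as widely as round spermatid markers. With the round spermatid level as a covariate, Lrrc34, Lrrc43, Lrrc45 and Lrrc74b were called lower and Lrrc18, Lrrc36, Lrrc49, Lrrc56, Lrrc61 and Lrrc73 higher. That fit called more genes in general, with 5.37% of all tested genes lower and 3.87% higher, against 1.94% and 0.73% without the covariate. Lrrc18 had a log2 fold change of 1.37 in that fit (adjusted p = 0.00159). How far the share of round spermatids contributes to the values of single genes was otherwise not tested.

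**Figure D4:**
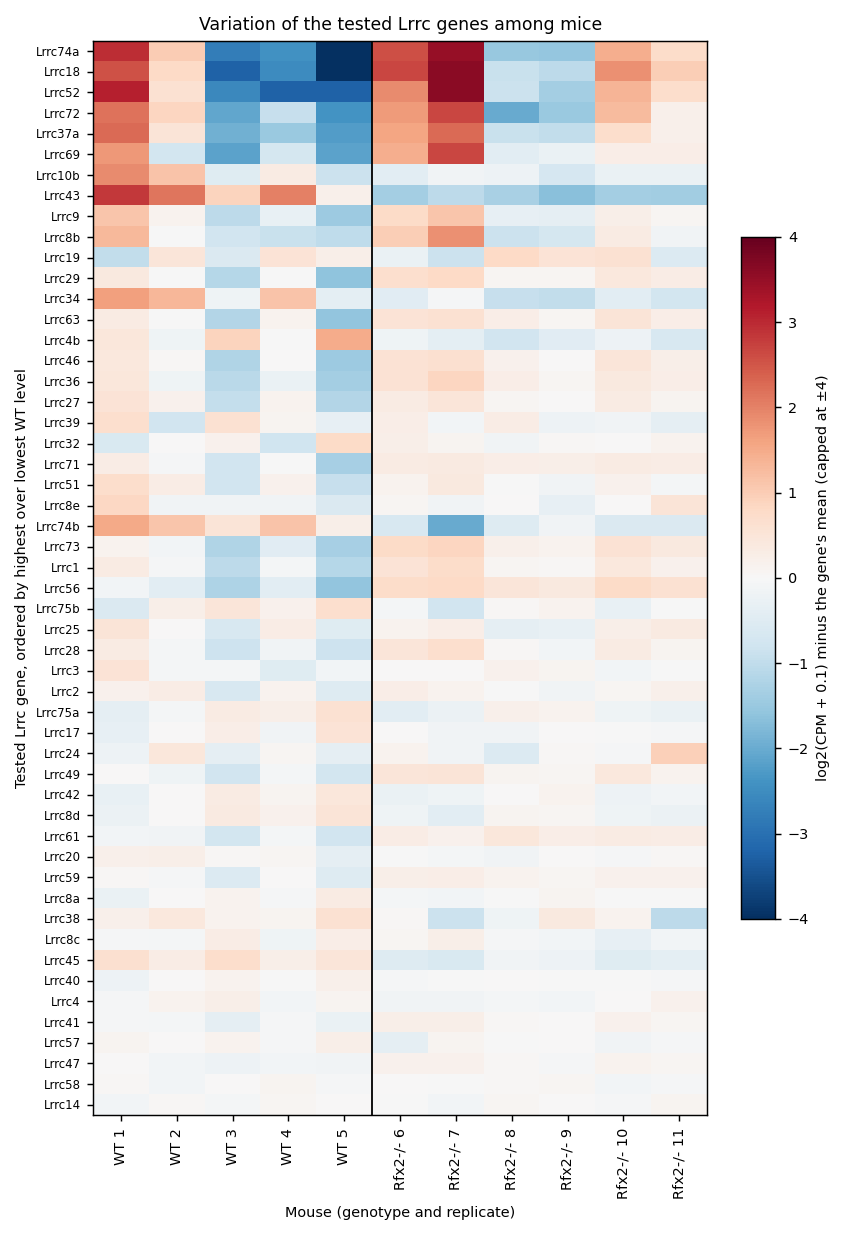
Each cell shows log2(CPM + 0.1) of a tested Lrrc gene (row) in a mouse (column) minus the mean of that gene over the 11 mice, from blue (below) to red (above), with colours capped at 4 on either side and a line between WT and Rfx2-/-. Lrrc74a, Lrrc18 and Lrrc52 at the top are red in WT 1 and Rfx2-/- 7 and blue in WT 3, 4 and 5. Lrrc43 and Lrrc45 lie above their means in every WT mouse and below them in every Rfx2-/- mouse. On this scale the cells of Lrrc45, and of Lrrc43 in WT 5, are pale.

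The remaining 11 Lrrc genes did not pass the filter on low counts. They were Lrrc3b, Lrrc4c, Lrrc7 (densin of the synapse), Lrrc10 of the heart, Lrrc14b, Lrrc15, Lrrc26, Lrrc30, Lrrc31, Lrrc55 and Lrrc66. None reached more than 31 reads in a WT mouse, the value of Lrrc55, and Lrrc66 reached 38 in an Rfx2-/- mouse. Lrrc66 had 0.564, 0.0673, 0.114, 0.105 and 0.126 CPM in WT and 0 to 1.57 CPM in Rfx2-/- mice. Lrrc14b had 0 reads in every mouse, and all 2755 nt of its exons are also exons of Ccdc127, so that reads from Lrrc14b would have been discarded as ambiguous. Without the filter, 10 of the 11 could be fitted and the lowest adjusted p was that of Lrrc55 (0.0752).

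Exon overlap also limits other values, since 15 of the 63 genes share exonic positions with another gene and reads there were left out. The share was largest after Lrrc14b for Lrrc24, which has 54.1% of its exons in common with Lrrc14 on the other strand, for Lrrc39 (26.6%, Trmt13) and for Lrrc71 (24.6%, Arhgef11). None of these was called.

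Leucine-rich repeat genes with other symbols were examined beside the Lrrc genes. The table holds 34 of them (Lrrn, Lrrtm, Lrrk, Lrrfip, Lrriq, Lrfn, Lrig and Lrch genes and a few single ones), and 28 were tested. By edgeR 0 were called, while 7 were lower and 6 higher at an unadjusted p below 0.05, DESeq2's Wald test called 1 (Lrrcc1) and voom 0. Lrrcc1, a centrosome protein, had a log2 fold change of 0.84 (SE 0.24, adjusted p = 0.0428). At the same unadjusted p, 7 Lrrc genes were lower and 11 higher of 52 (background 23.7% and 18.1%). The difference between these 2 sets of genes was not tested.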

How the data were processed

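According to the methods and the submitters' processing notes, single reads of TruSeq libraries were handled with CASAVA 1.8.2, STAR 2.4 and featureCounts 1.4.6 on GRCm38. The methods name different aligners in different paragraphs. Multi-mapping reads and reads on exons of several genes were dropped. The authors deposited unnormalized read counts, 23074 genes for each mouse.

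The fit used edgeR 4.0.16 under R 4.3.3 (filterByExpr by genotype, TMM, glmQLFit and glmQLFTest, no covariate). P-values were adjusted by Benjamini-Hochberg over all 15745 tested genes. CPM of single mice carry no prior count, and list levels are mean log2 CPM with a prior count of 2. Alternatives were DESeq2 size factors, total counts, DESeq2 1.42.0's Wald test, limma 3.58.1 voom with quality weights, other filters and thresholds, the round spermatid covariate and each mouse left out. The edgeR, DESeq2 and voom fits were also run on simulated counts. That simulation gave every gene the same dispersion and no shift shared by the genes of a mouse. It therefore does not check the fits at the spread seen between these mice. Symbols and exons came from GENCODE M21 (22293 of the IDs matched). The ChIP-Seq marks are the study's annotation. Genes named are those called, those past 2-fold, the 5 most abundant per length and those of the lists; further genes with an adjusted p of at most 0.05 and those that varied most were named after their values were seen. The Lrrc genes and all lists were chosen with earlier results of these data known. The floor of 3 counts covers counting error only, while SD and SE include the spread between mice. Python 3.11.15, SciPy 1.17.1, matplotlib 3.10.9 and pandas 2.3.3 served for summaries and plots.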

Additional observations from a re-analysis of the deposited data

Results flagged for a closer look

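Single mice stood far from the others of their genotype in 9 of 104 groups (52 genes in each genotype). Chance alone flags about 1 in 20 independent groups. These genes share the same mice, so the 9 flags are not read against that rate. WT replicate 1 was the high mouse for Lrrc37a (74.5 CPM, others 3.21 to 22.2), Lrrc52 (8.14 CPM, others 0 to 1.35), Lrrc69 (1.37 CPM, others 0 to 0.175), Lrrc74a (27.2 CPM, others 0.126 to 7.13), Lrrc8b (79.3 CPM, others 16.1 to 32.0) and Lrrc8e (2.61 CPM, others 0.912 to 1.28). Rfx2-/- replicate 7 was the high mouse for Lrrc52 (11.5 CPM, others 0.267 to 3.43) and Lrrc69 (2.72 CPM, others 0.231 to 1.12). Lrrc24 stood out in Rfx2-/- replicate 11 at 1.78 CPM, against 0.555 to 0.958 in the others. WT replicate 1 and Rfx2-/- replicate 7 also had the highest round spermatid marker levels of their genotypes (5.58 and 5.68 mean log2 CPM).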

How the results depend on the processing

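No paired analysis was made because the labels name no litters. The study states that littermates of the same age were used where this could be done. The replicate numbers, 1 to 5 in WT and 6 to 11 in Rfx2-/-, do not show which mice shared a litter. The count of Lrrc genes called lower (2) became 3 with total counts and 3 with DESeq2's Wald test (Lrrc34 added in both), 4 with voom and 4 with the round spermatid covariate, and 5 at an unadjusted p of at most 0.01 or an adjusted p of at most 0.05. It was 2 in each fit without 1 mouse. Of all tested genes, 2.76% were called lower with total counts, 5.79% with the Wald test, 4.33% with voom and 5.37% with the covariate. These shares were 10.2% (unadjusted) and 8.78% (adjusted) at the looser thresholds, and 1.17% to 2.49% with a mouse left out. The count called higher (1) became 6 with DESeq2's Wald test, 2 with voom, 6 with the covariate and 6 at either looser threshold. With a mouse left out it lay between 0 and 1. Of all tested genes, 7.28% were called higher with the Wald test, 2.33% with voom and 3.87% with the covariate. These shares were 7.49% (unadjusted) and 6.15% (adjusted) at the looser thresholds, and 0.287% to 1.22% with a mouse left out. Past 2-fold, the lower count (1) became 3 with total counts, 2 with the Wald test, 3 with voom, 3 with the covariate and 4 at either looser threshold, and the higher count (1) became 2 with the Wald test and with the covariate, and 0 to 1 with a mouse left out. The cause of these changes was not tested beyond what each setting does by construction. The 14 Lrrc genes past 2-fold or with an adjusted p of at most 0.05 kept their direction under every alternative that could fit them. Counts of 12 to 47 reads limit Lrrc74b and Lrrc4b in WT, and a single sample per mouse leaves technical spread unmeasured.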
